A study of Mus musculus with 2 samples.

Results

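The genes described here are 59 mouse regulators of chromatin whose human counterparts are mutated in syndromes with a characteristic face, or which are partners of such genes in the same complexes. They were chosen by name, with earlier results of these data known. Each was matched to 1 gene of the deposited tables, so 59 of 59 listed genes were found among the 42462 annotated mouse genes in both libraries, of which 21474 are protein-coding. They were arranged in 11 groups by complex or role: Polycomb repressive complexes PRC2 and PRC1, ASXL proteins, the KMT2 methyltransferases with histone demethylases, other histone methyltransferases, acetyltransferases, deacetylases, SWI/SNF subunits, CHD remodellers with Adnp, cohesin with Ctcf, and the enzymes of DNA methylation.

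Chromatin regulators decide which stretches of DNA a cell can read. Writers and erasers add or remove methyl and acetyl groups on histones or DNA, remodellers use ATP to move nucleosomes, and cohesin with CTCF folds the DNA into loops. Facial mesenchyme comes largely from neural crest, and loss of a single copy of many of these genes in humans gives a syndrome with a recognisable face, as for CHD7 in CHARGE syndrome, KMT2D and KDM6A in Kabuki syndrome, and NIPBL in Cornelia de Lange syndrome.

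The series holds 1 group of samples: facial prominence, the tissue of the swellings that build the face, taken from embryos of the mouse strain B6NCrl at embryonic day 12.5 that the labels call healthy. Replicate 1 is a pool of 120 embryos and replicate 2 a pool of 88, each of mixed sex, and each pool gave 1 library of total RNA with synthetic ERCC spike-ins. With no second condition, the comparisons are between genes within a library and between the 2 libraries. The label says only "embryonic facial prominence", so the single prominences are not separated, and in bulk tissue fewer cells of a type and less RNA per cell cannot be told apart.

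The libraries held 27890681 and 39969716 estimated counts, of which the 59 genes took 0.758% and 0.754%. Between 100 and 12167 counts fell on a member in replicate 1, and between 182 and 17533 in replicate 2. Levels are given in TPM, a unit that divides counts by transcript length and scales to a fixed total, and so allows different genes to be set side by side. For the tissue label, 6 of 6 facial mesenchyme markers (Msx1, Prrx1, Alx1, Pdgfra, Dlx5 and Twist1) reached 10 TPM in both libraries and summed to 829 TPM in each, although Alx1 was at 91.9 and 134 TPM and Dlx5 at 84.4 and 57.1 TPM. Markers of other cells were present too, none at 0: 5 epithelial markers summed to 262 and 259 TPM, 5 endothelial to 160 and 157, 5 macrophage to 63.1 and 62.6, 5 erythroid to 9849 and 8863, 5 muscle to 367 and 433, 6 neuronal to 588 and 454, and 5 lens and retina markers to 208 and 466. A level of a chromatin regulator is therefore a sum over these cells, and which cells it came from was not tested. Over the 17333 entries that passed a filter on low counts, the biological coefficient of variation between the libraries was 6.27%. Spike-ins were not removed before that filter, and the spread may be technical.

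Every one of the 59 regulators was expressed. All 59 reached 1 TPM in both libraries, where 61.8% of protein-coding genes did. Of them 52 reached 10 TPM in both, where 41.7% of protein-coding genes did. Their median level was 27.5 TPM against 5.24 TPM for all protein-coding genes, and 58 of 59 lay above that median. The exception was Cbx7. At 100 TPM or more in both libraries stood 10 of the 59 regulators, against 1586 of 21474 protein-coding genes. They were led by the deacetylase Hdac2 and the SWI/SNF subunits Smarce1 and Smarcb1. The median of each of the 11 groups also lay above that of the protein-coding genes, from 15.8 TPM for the KMT2 enzymes and demethylases to 135 TPM for the deacetylases.

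**Figure D1:**
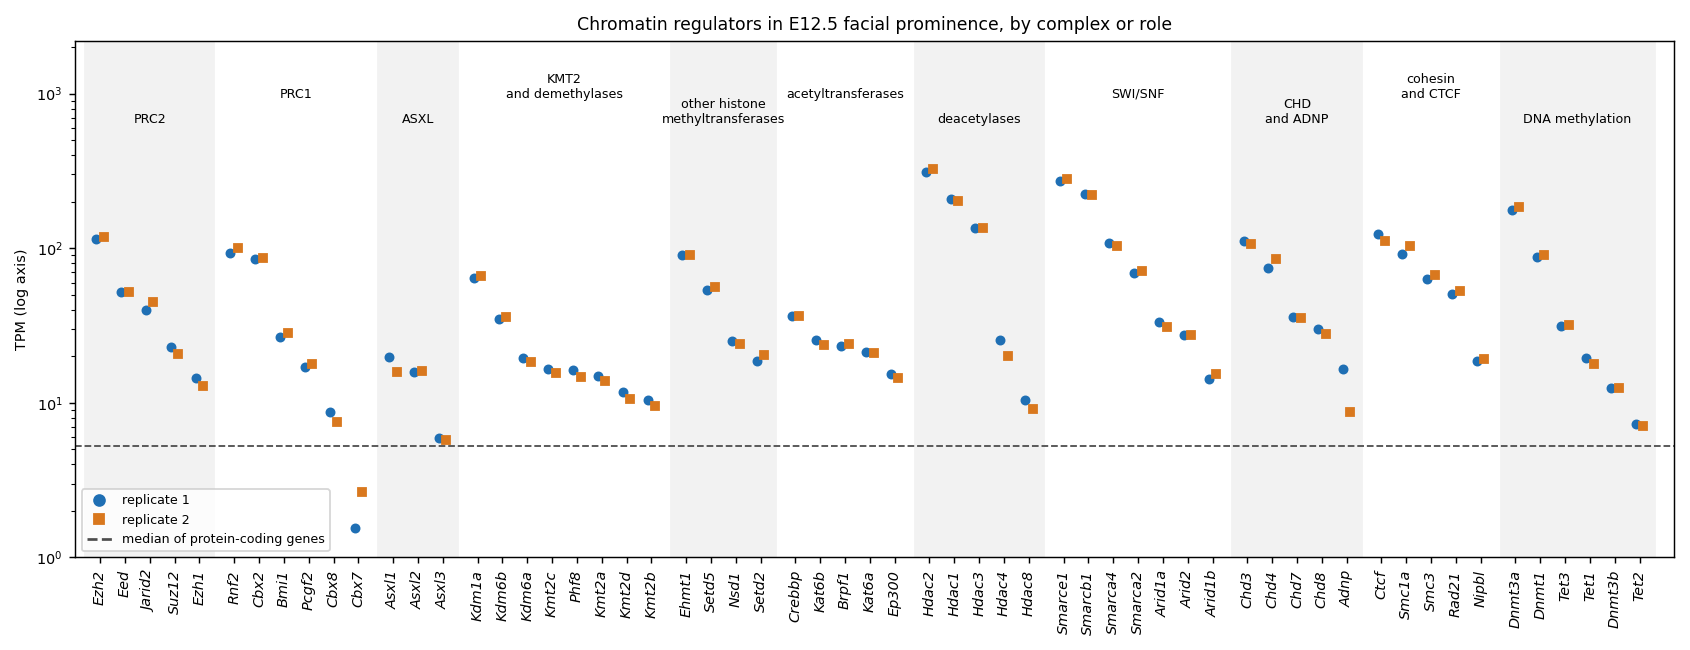
Level of each of the 59 regulators in TPM on a log axis, by group, with a circle for replicate 1 and a square for replicate 2 and a dashed line at the median of protein-coding genes (5.24 TPM). Hdac2 is highest at 313 and 326 TPM, Cbx7 lies below the line at 1.56 and 2.65 TPM, and the paired points of most genes nearly coincide, with Adnp set apart at 16.6 and 8.69 TPM.

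PRC2 places the repressive methyl mark on lysine residues of histone H3 and had a group median of 42.3 TPM. Its catalytic subunit Ezh2, the gene of Weaver syndrome, stood at 115 TPM in replicate 1 and 117 TPM in replicate 2. The alternative catalytic subunit Ezh1, which is known from resting and differentiated cells, stood at 14.4 and 12.9 TPM. The ranges did not overlap, and the log2 ratio of Ezh2 to Ezh1 was 3.00 and 3.18 within the 2 libraries. Eed, which binds the finished mark, was at 51.8 and 52.3 TPM. Jarid2, which guides the complex to its targets, was at 40.0 and 44.6 TPM. The core subunit Suz12 was lower, at 23.1 and 20.8 TPM, so the 3 core members of PRC2 were not at equal RNA levels.

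PRC1 ubiquitinates histone H2A and compacts chromatin, and its members spread more widely, over a 46.0-fold range around a median of 22.5 TPM. The E3 ligase Rnf2 was highest at 93.3 and 100 TPM, and its paralogue Ring1, from the wider list, was at 24.5 and 22.4 TPM. Bmi1 and Pcgf2, alternative partners of the ligase, were at 26.8 and 28.3 TPM and at 17.1 and 17.8 TPM. The chromodomain subunits, which read the PRC2 mark and of which each complex holds one, were far apart. Cbx2 stood at 85.4 and 86.8 TPM. Cbx8 stood at 8.78 and 7.55 TPM, and Cbx7 at 1.56 and 2.65 TPM with 100 and 182 counts. The log2 ratio of Cbx2 to Cbx8 was 3.28 and 3.52, and that of Cbx2 to Cbx7 was 5.77 and 5.03. Cbx2 was thus the leading chromodomain subunit among the 3 in both libraries. From the wider list, Cbx6 was at 30.2 and 28.5 TPM.

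The ASXL proteins are cofactors of the BAP1 enzyme that removes the PRC1 mark. Asxl1, the gene of Bohring-Opitz syndrome, was at 19.7 and 15.8 TPM. Asxl2 was at 15.9 and 16.1 TPM, and the 2 genes exchanged order between the libraries. Asxl3 was lower, at 5.95 and 5.76 TPM, with a log2 ratio of Asxl1 to Asxl3 of 1.73 and 1.45. Bap1 itself, from the wider list, was at 85.9 and 83.3 TPM.

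The KMT2 enzymes methylate lysine 4 of histone H3 and the demethylases here remove repressive or activating methyl marks. On TPM over all transcripts, the 4 KMT2 genes were close together and low for the set. Kmt2c stood at 16.5 and 15.7 TPM. Kmt2a, the gene of Wiedemann-Steiner syndrome, stood at 15 and 13.9 TPM. Kmt2d was at 11.7 and 10.6 TPM, and Kmt2b at 10.4 and 9.51 TPM. The reads behind these levels differed, with 3965 and 5058 counts for Kmt2d and 630 and 874 for Kmt2b. On coding transcripts with a complete reading frame alone, the 4 genes were further apart and in another order. Their means were then 10.9 TPM for Kmt2d, 7.3 for Kmt2a, 3.485 for Kmt2c and 2.59 for Kmt2b. The log2 ratio of Kmt2a to Kmt2b was 0.52 and 0.54 on all transcripts and 1.33 and 1.67 on complete coding ones. Of the demethylases, Kdm6b, which erases the PRC2 mark, was at 35.0 and 35.8 TPM. Its X-linked relative Kdm6a, the other Kabuki syndrome gene, was at 19.4 and 18.4 TPM, and the Y-linked partner Uty was at 14.7 and 17.3 TPM in these pools of mixed sex. On complete coding transcripts Kdm6a was at 15.5 and 15.7 TPM and Uty at 5.5 and 7.79 TPM, a log2 ratio of 1.49 and 1.01. Phf8, the X-linked gene of Siderius syndrome, was at 16.4 and 14.8 TPM, a range that overlapped those of Kmt2c and Kmt2a. The lysine demethylase Kdm1a was highest of the group at 63.8 and 66.0 TPM.

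Kdm1a (chr4:136550540-136602723, GRCm38, minus strand) is known to be spliced with or without a pair of small exons, the shorter of them restricted to neurons. Those exons are printed because the transcript table lets their use be read off. Both come from the GENCODE M21 transcript sequences on GRCm38, written along the transcript, with nothing in capitals. The 60-base exon at chr4:136582040-136582099 is in the complete coding transcript Kdm1a-202 and is skipped in Kdm1a-203, and the 12-base exon at chr4:136563438-136563449 is in Kdm1a-208.
Kdm1a 60-base exon: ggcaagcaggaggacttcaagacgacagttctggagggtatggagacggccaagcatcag
Kdm1a 12-base exon: gacactgtcaag
Kdm1a-203, without either exon, was at 29.3 and 28.0 TPM. Kdm1a-202, with the longer exon, was at 27.1 and 28.8 TPM. Inclusion and skipping of the 60-base exon were thus close to equal, and the leader changed between the libraries. Kdm1a-208, with the 12-base exon, had 4.29 estimated counts (0.28 TPM) in replicate 1 and was listed at 0 in replicate 2, where the deposited interval reached up to 0.517 TPM.

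Among the other histone methyltransferases the median was 39.8 TPM. Ehmt1, the gene of Kleefstra syndrome, was at 89.8 and 89.9 TPM, and its partner Ehmt2 from the wider list was at 100 and 92.0 TPM. The 2 form a heterodimer that methylates lysine 9 of histone H3, and their log2 ratio was -0.16 and -0.03. Setd5 was at 53.7 and 56.5 TPM, of which a small share lay on coding transcripts. Nsd1, the gene of Sotos syndrome, was at 25.2 and 23.9 TPM. Its relative Nsd2, from the wider list, was higher at 53.3 and 49.0 TPM, a log2 ratio of Nsd1 to Nsd2 of -1.08 and -1.04. Counted without division by length, the sign of that ratio turned (0.40), and on complete coding transcripts it was -0.30. Setd2, which methylates lysine 36 of histone H3 along transcribed genes, was at 18.6 and 20.2 TPM.

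On TPM over all transcripts, the acetyltransferases formed the narrowest group, with a 2.43-fold range and a median of 23.7 TPM. Crebbp, the main gene of Rubinstein-Taybi syndrome, was at 36.3 and 36.5 TPM. Its paralogue Ep300 was lowest at 15.4 and 14.5 TPM. The log2 ratio of Crebbp to Ep300 was 1.24 and 1.33, and 2.81 and 2.88 on complete coding transcripts. Kat6b was at 25.6 and 23.5 TPM, and Kat6a at 21.3 and 21 TPM. Their scaffold Brpf1 was at 23.2 and 24.2 TPM, which overlapped the range of Kat6b. On complete coding transcripts alone the group was not the narrowest. Its means then ran from 4.91 TPM for Ep300 to 35.2 TPM for Crebbp. Those of cohesin with Ctcf ran from 18.9 TPM for Nipbl to 64.3 TPM for Smc3.

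Deacetylases had the highest group median, 135 TPM, but with a split inside the group. The class I enzymes of the large corepressor complexes were abundant: Hdac2 at 313 and 326 TPM, Hdac1 at 208 and 203 TPM, and Hdac3 at 135 and 134 TPM. By contrast Hdac4, a class IIa enzyme that restrains cartilage and muscle differentiation, stood at 25.4 and 20.0 TPM. Hdac8, the X-linked enzyme that deacetylates cohesin, was lowest at 10.4 and 9.09 TPM. The log2 ratio of Hdac3 to Hdac8 was 3.70 and 3.89.

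All 7 SWI/SNF members exceeded 10 TPM in both libraries, and their levels followed a 18.7-fold gradient. The small core and accessory subunits were on top, with Smarce1 at 272 and 279 TPM and Smarcb1 at 223 and 222 TPM. The ATPases came next: Smarca4 at 108 and 104 TPM and Smarca2, the gene of Nicolaides-Baraitser syndrome, at 69.7 and 71.3 TPM. The large DNA-binding subunits were lowest. Arid1a was at 33.2 and 30.9 TPM, Arid2 at 27.4 and 27.3 TPM, and Arid1b, the most frequent gene of Coffin-Siris syndrome, at 14.2 and 15.3 TPM. Arid1a exceeded Arid1b, a mutually exclusive alternative, by 1.22 and 1.02 on the log2 scale, and by a mean of 0.79 without division by length.

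Of the CHD remodellers, the NuRD ATPases Chd3 and Chd4 led with 112 and 107 TPM and with 75.0 and 85.5 TPM. Chd7, the CHARGE syndrome gene (chr4:8690406-8867659, GRCm38, plus strand), was at 36.0 and 35.5 TPM. Chd8, which is associated with autism and overgrowth, was at 29.9 and 28.1 TPM. Adnp, a zinc finger homeodomain protein that works with Chd4, was at 16.6 TPM in replicate 1 and 8.69 TPM in replicate 2, the largest log2 difference between the libraries among the 59.

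Cohesin is a ring that holds sister chromatids together and extrudes loops. Its ring members Smc1a, Smc3 and Rad21 were at 91.3 and 103 TPM, at 63.7 and 67.5 TPM, and at 50.6 and 52.9 TPM. Nipbl, which loads the ring and is the most often mutated gene in Cornelia de Lange syndrome, was lowest at 18.6 and 19.2 TPM. Ctcf, which stops the ring at loop anchors, was at 124 and 112 TPM. Paralogues that are used in germ cells were far lower. Smc1b had 17 and 16 counts (0.25 and 0.16 TPM). Rec8 was at 6.57 and 6.16 TPM, a log2 ratio of Rad21 to Rec8 of 2.95 and 3.10. Ctcfl had 2 and 7 counts. At 2 counts it was set to a floor of 3 counts, so the ratio of Ctcf to Ctcfl is a bound and its value is not given.

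The DNA methylation group had a median of 25.1 TPM and a 25.1-fold range. Dnmt3a, a de novo methyltransferase and the gene of Tatton-Brown-Rahman syndrome, was highest at 177 and 184 TPM with 12167 and 17533 counts, the most of any member. Dnmt1, which copies methylation after replication, followed at 87.3 and 90.8 TPM. The other de novo enzyme Dnmt3b, mutated in a syndrome of immunodeficiency, centromere instability and facial anomalies, was at 12.5 and 12.4 TPM. The log2 ratio of Dnmt3a to Dnmt3b was 3.82 and 3.89. Of the TET enzymes, which oxidise methylcytosine, Tet3 was at 31.3 and 31.9 TPM, Tet1 at 19.5 and 17.8 TPM, and Tet2 at 7.34 and 7.08 TPM.

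Dnmt3a and Dnmt1 each start at more than 1 promoter. The internal start of Dnmt3a gives a shorter form without the first part, known from embryonic stem cells. The promoter windows are printed because the transcript table assigns RNA to each start. They are RefSeq windows on GRCm38.p6, from 250 bases before to 50 after a start, written 5′ to 3′ along the gene with each CpG in capitals. The first 2 are from Dnmt3a (chr12:3806007-3914443, plus strand), at chr12:3806730-3807029 and chr12:3891494-3891793. The next 2, at the starts of its 2 leading transcripts, are from Dnmt1 (chr9:20907209-20959888, minus strand), at chr9:20952930-20953229 and chr9:20959839-20960138.
Dnmt3a upstream start: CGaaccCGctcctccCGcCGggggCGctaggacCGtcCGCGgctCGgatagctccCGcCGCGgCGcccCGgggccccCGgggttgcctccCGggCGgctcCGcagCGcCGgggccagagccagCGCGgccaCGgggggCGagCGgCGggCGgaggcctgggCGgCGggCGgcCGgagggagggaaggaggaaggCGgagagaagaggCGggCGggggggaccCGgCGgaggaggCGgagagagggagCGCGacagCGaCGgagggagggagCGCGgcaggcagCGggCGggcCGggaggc
Dnmt3a internal start: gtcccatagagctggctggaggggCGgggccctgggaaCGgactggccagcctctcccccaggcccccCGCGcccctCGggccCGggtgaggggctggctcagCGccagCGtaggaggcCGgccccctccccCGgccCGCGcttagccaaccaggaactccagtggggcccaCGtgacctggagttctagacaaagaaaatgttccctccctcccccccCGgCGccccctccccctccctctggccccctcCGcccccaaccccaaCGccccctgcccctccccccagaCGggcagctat
Dnmt1-201 start: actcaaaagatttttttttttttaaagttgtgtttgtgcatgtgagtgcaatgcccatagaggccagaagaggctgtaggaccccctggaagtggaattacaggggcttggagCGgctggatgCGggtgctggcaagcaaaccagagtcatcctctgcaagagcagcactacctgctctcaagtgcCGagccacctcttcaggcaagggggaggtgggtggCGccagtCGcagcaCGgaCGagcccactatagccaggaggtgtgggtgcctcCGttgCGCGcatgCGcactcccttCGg
Dnmt1-202 start: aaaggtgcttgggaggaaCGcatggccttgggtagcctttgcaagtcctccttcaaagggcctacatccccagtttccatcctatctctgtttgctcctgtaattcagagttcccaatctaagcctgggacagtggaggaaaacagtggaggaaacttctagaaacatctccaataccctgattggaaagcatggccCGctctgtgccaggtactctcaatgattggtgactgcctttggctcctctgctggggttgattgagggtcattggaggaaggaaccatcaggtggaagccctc
The upstream Dnmt3a window held 46 CpGs and the internal one, which is set on the start of Dnmt3a-203, held 18. From the upstream start came Dnmt3a-201, which codes for 908 residues, at 41.9 and 42.4 TPM. From the internal start, 84698 bases downstream, came Dnmt3a-205, which codes for 689 residues, at 91.4 and 104 TPM, and Dnmt3a-203, with the same coding length, at 8.0 and 7.29 TPM. Together the internal start held 99.4 and 111 TPM, which was 2.37 and 2.62 times the level of Dnmt3a-201. In counts the order was the other way, with 4305 and 6699 for the internal start and 7020 and 10074 for the longer Dnmt3a-201. Only 16 bases of Dnmt3a-205, 28 of Dnmt3a-201 and 0 of Dnmt3a-203 lie in no other annotated transcript of the gene, so the split between the starts is uncertain.

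The Dnmt1-201 window held 12 CpGs and the Dnmt1-202 window 2. A further window, at chr9:20952574-20952873 and the start of Dnmt1-203 (1.69 and 1.87 TPM), held 33 CpGs and is not printed. Dnmt1-201 codes for 1620 residues and was at 57.2 and 60.3 TPM. Dnmt1-202, from a start 6909 bases upstream, codes for 1501 residues and was at 28.4 and 28.6 TPM. Its deposited intervals ran from 22.9 to 31.1 TPM and from 24.6 to 31.5 TPM. An upstream start of Dnmt1 that gives a shorter protein is known from oocytes. Of Dnmt1-201, 275 bases lie in no other annotated transcript of the gene, and of Dnmt1-202, 156 bases. The split between them rests on reads that touch such bases, and the tables do not hold the positions of reads.

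Of the 59 genes, 45 matched 53 RefSeq promoter windows, and CpGs were dense in them. The median ratio of observed to expected CpGs was 0.875, against 0.593 over the 19931 windows of protein-coding genes. A ratio above 0.6 was found in 45 of the 53 windows (84.9%), against 49.5% of all. The 8 windows at or below 0.6 belonged to Adnp, Dnmt1 (2 windows), Dnmt3a, Hdac8, Pcgf2, Setd5 and Tet3. A window need not be the main start of its gene. Transcripts from the Hdac8 window held 7.51% and 1.65% of that gene's TPM, and those from the Setd5 window 19.1% and 18.7%. The Setd5 window held 1 CpG, and the transcript that starts in it was Setd5-212, annotated as a processed transcript with no reading frame. The letters TATAAA, searched on both strands, were in 2 of the 53 windows (3.77%), in Hdac8 and Jarid2, against 12% of all windows of protein-coding genes. Such a match describes letters and is no site of binding. No window matched Kat6a, Kdm6b, Chd7, Asxl3, Nsd1, Cbx2, Arid2, Chd3, Hdac1, Kmt2b, Hdac3, Nipbl, Smarce1 and Rad21.

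**Figure D2:**
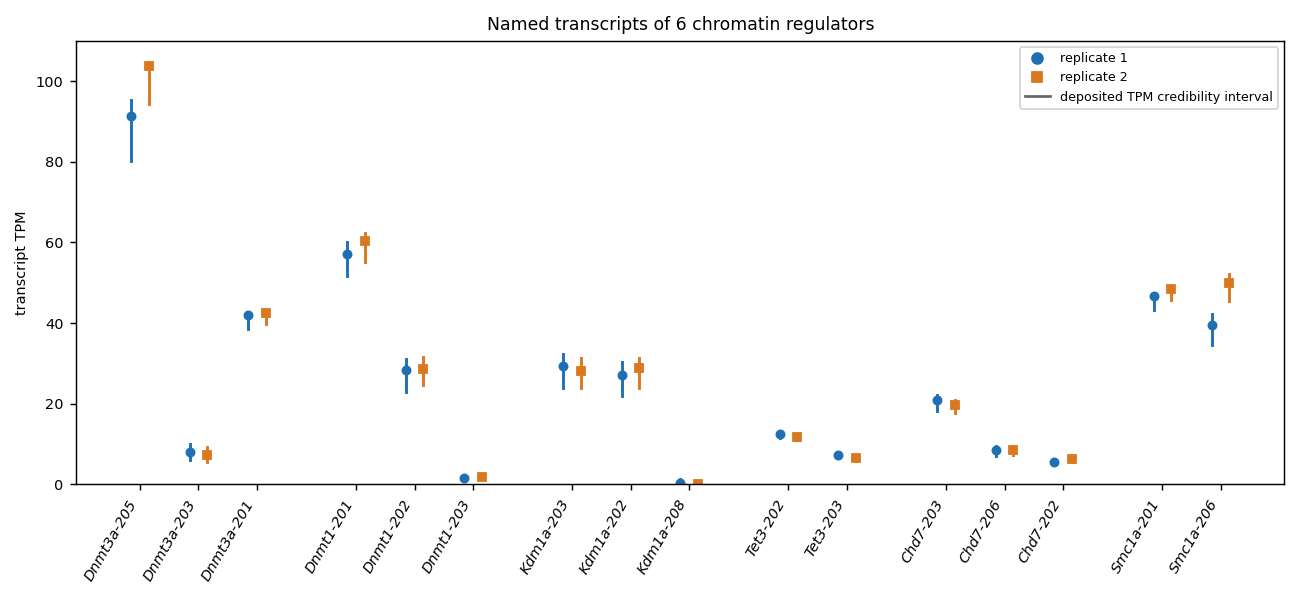
TPM of named transcripts of 6 regulators, with a circle for replicate 1, a square for replicate 2 and a vertical line for the deposited credibility interval of the same library. Dnmt3a-205 from the internal start (91.4 and 104 TPM) lies above Dnmt3a-201 (41.9 and 42.4 TPM), Kdm1a-203 and Kdm1a-202 lie within each other's intervals, and Smc1a-206, annotated for decay, rises to the level of the coding Smc1a-201.

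Which transcripts make up a gene's TPM differed from member to member. The annotation sorts them into coding transcripts with a complete reading frame, coding fragments cut at an end, transcripts subject to nonsense-mediated decay, retained introns and processed transcripts without a frame. Complete coding transcripts held a median of 81.5% of a member's TPM. They held over 90% in both libraries for 18 members, Hdac2, Smarca4, Smarcb1, Cbx2, Kmt2d and Eed among them. They held under 50% in both for 11 members. Complete and fragment coding transcripts together passed 50% in both libraries for 50 of 59 members. Counted as reads rather than TPM the picture shifted, because short transcripts gain from the division by length: coding transcripts then passed 50% in both libraries for 58 members, and the remaining one was Setd5. The same shares were not computed over all protein-coding genes, so nothing here is shown to be particular to the members.

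**Figure D3:**
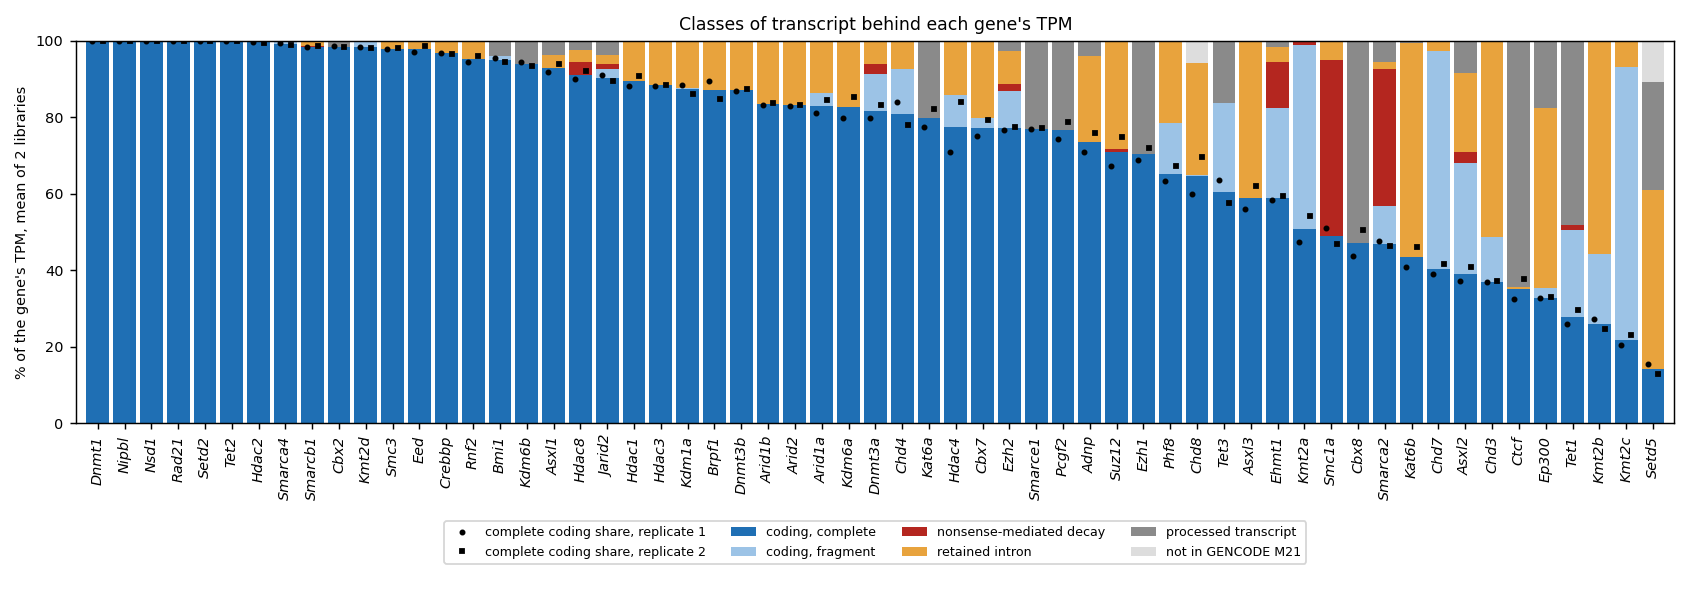
Share of each regulator's TPM on 6 classes of transcript, as stacked bars of the mean of both libraries in percent, ordered by the share of complete coding transcripts, with that share in each library as a circle (replicate 1) and a square (replicate 2). The bars run from 100% complete coding at the left to 14.2% for Setd5 at the right, with coding fragments large in Kmt2c and Chd7, decay transcripts in Smc1a and Smarca2, and processed transcripts in Ctcf.

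In 7 members the leading transcript was not annotated as coding, and in 3 more it was a coding fragment. How often this holds over all protein-coding genes was not computed. The Setd5 leader Setd5-212 held 19.1% and 18.7% of the gene's TPM, and complete coding Setd5 transcripts held 15.6% and 12.8%. The Ctcf leader Ctcf-202, a processed transcript of 528 bases, was at 76.4 and 61.3 TPM, above the coding Ctcf-201 at 40.5 and 42.2 TPM. In counts the order was the other way: Ctcf-201 drew 2608 and 3849 counts and Ctcf-202 drew 572 and 652. For Tet1 the processed transcript Tet1-202 was at 8.90 and 9.07 TPM, and Tet1-206, the complete coding form of 2039 residues, was at 5.05 and 5.27 TPM. Retained introns led in Kmt2b (Kmt2b-207, 5.34 and 4.23 TPM), in Ep300 (Ep300-205, 6.05 and 4.70 TPM), in Chd3 (Chd3-203, 37.3 and 32.6 TPM) and in Asxl3 (Asxl3-203, 2.62 and 2.19 TPM).

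In 9 members the leading transcript was not the same in both libraries, a count that was not made over all protein-coding genes. For Ezh1, the complete coding Ezh1-203 fell from 7.70 to 2.19 TPM, while Ezh1-202 was listed at 0 in replicate 1 and at 4.99 TPM in replicate 2. The gene total of Ezh1 was 14.4 and 12.9 TPM, so the 2 libraries differed in how the reads were shared out and less in their sum. Of Ezh1-203, 0 bases, and of Ezh1-202, 14 bases lie in no other annotated transcript of the gene. For Smc1a, the coding Smc1a-201 was at 46.7 and 48.4 TPM and Smc1a-206, annotated for nonsense-mediated decay, at 39.6 and 50.1 TPM. For Chd4, Chd4-203 was at 21.8 and 31.1 TPM and Chd4-202 at 31.5 and 31.0 TPM. The others, Cbx8, Asxl3, Kmt2a, Kdm1a, Ep300 and Chd3, changed leader between transcripts of similar level. For Cbx8, for example, Cbx8-201 was at 3.83 and 3.82 TPM and the processed Cbx8-202 at 4.35 and 2.88 TPM.

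Several members carried more than 1 coding form. Tet3-202, which codes for 1668 residues, was at 12.5 and 11.8 TPM. Tet3-203, from a start 14717 bases upstream and with 1803 residues, was at 7.37 and 6.53 TPM. Both are coding, and the shorter one was higher in each library. For Dnmt3b, the leading Dnmt3b-206 with 776 residues was at 8.12 and 5.34 TPM, and Dnmt3b-207 with 860 residues was at 1.53 and 2.44 TPM. For Ehmt1, Ehmt1-203 with 1289 residues was at 28.4 and 27.5 TPM, and Ehmt1-205 with 1243 residues was at 18 and 17.9 TPM. For Smarca2, the coding Smarca2-201 with 1583 residues was at 20.2 and 17.9 TPM, and the decay transcript Smarca2-215 was at 17.8 and 15.9 TPM. A short coding form of Smarca2, Smarca2-203 with 236 residues, was at 6.13 and 5.93 TPM.

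Coding fragments were the largest class in both libraries in 2 members, which were singled out after their values were seen. For Chd7, the fragment Chd7-203 of 2381 bases was at 21 and 19.8 TPM, and all complete coding Chd7 transcripts together were at 14.1 and 14.7 TPM. Among these, Chd7-202, which codes for the full 2986 residues, was at 5.60 and 6.20 TPM. For Kmt2c, the fragment Kmt2c-208 was at 7.25 and 6.13 TPM, and all complete coding Kmt2c transcripts together were at 3.38 and 3.59 TPM. The tables do not tell from which molecules the reads of a fragment came. On complete coding transcripts alone, all 59 members still reached 1 TPM in both libraries and 44 reached 10 TPM, with a median of 19.4 TPM.

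Related genes, most of them paralogues or alternative subunits, were compared in 32 pairs. A ratio was called when its log2 mean lay beyond -1 or 1 and its sign agreed between the libraries, and 17 of 32 ratios were called. The called ratios include Ctcf to Ctcfl, which is a bound. With 2 libraries no test was made. The widest ratios between members were those of Cbx2 to Cbx7 (mean 5.40), Dnmt3a to Dnmt3b (3.86), Hdac3 to Hdac8 (3.80), Cbx2 to Cbx8 (3.40) and Ezh2 to Ezh1 (3.09). Each of these 5 had the same sign and was also called on complete coding transcripts. Pairs that were not called included Hdac1 to Hdac2 (-0.59 and -0.68), Smarca4 to Smarca2 (0.63 and 0.54), Kat6a to Kat6b (-0.27 and -0.16) and Chd7 to Chd8 (0.27 and 0.34), and Ehmt1 to Ehmt2 was nearest to equal (-0.16 and -0.03). The sign agreed between the libraries in 31 of 32 pairs, and the exception was Asxl1 to Asxl2 (0.31 and -0.03).

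The choice of transcripts moved some of these ratios. On complete coding transcripts 21 ratios were called, of which 14 were called on all transcripts too, each with the same sign. Called on complete coding transcripts only were 7, among them Tet3 to Tet1 (1.89), Smarca4 to Smarca2 (1.67) and Asxl1 to Asxl2 (1.39). Lost on complete coding transcripts were 3, Dnmt1 to Dnmt3a (-0.73), Nsd1 to Nsd2 (-0.30) and Tet1 to Tet2. For Kmt2d to Kmt2c the sign turned, from -0.50 and -0.57 on all transcripts to 1.77 and 1.53 on complete coding ones. The sign also turned for Tet1 to Tet2, from 1.41 and 1.33 to -0.54 and -0.43. It turned in 6 pairs in all, the others being Chd4 to Chd3, Chd7 to Chd8, Kat6a to Kat6b and Smc1a to Smc3. The order within these 6 pairs depended on whether fragments and noncoding transcripts were counted. Without division by length the sign turned in 7 pairs, Nsd1 to Nsd2, Ehmt1 to Ehmt2, Kmt2d to Kmt2c, Chd4 to Chd3, Chd7 to Chd8, Kat6a to Kat6b and Smc1a to Smc3.

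**Figure D4:**
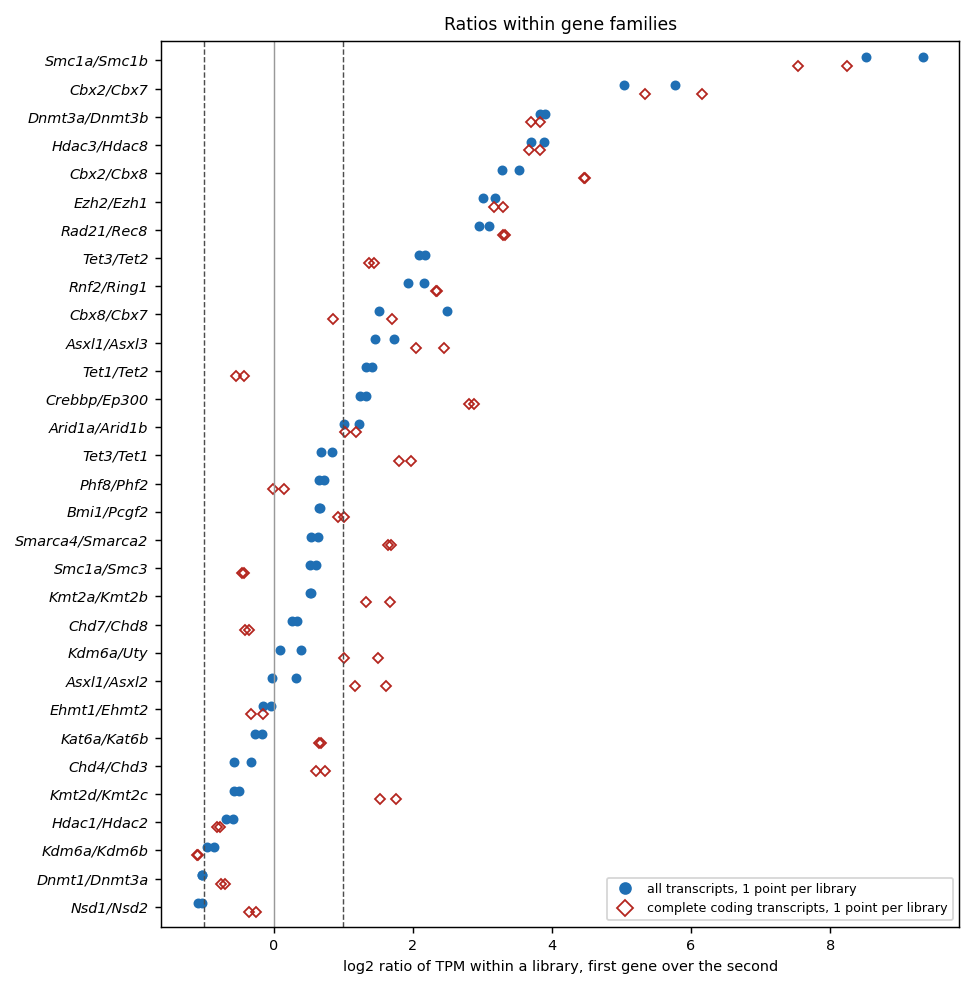
Log2 ratio of TPM for 31 gene pairs within each library, with filled circles for all transcripts of a gene, open diamonds for complete coding transcripts only, 1 point per library, and dashed lines at -1 and 1. The pair Ctcf to Ctcfl, a bound, is left out. Circles and diamonds lie on opposite sides of 0 in 6 pairs, Kmt2d to Kmt2c and Tet1 to Tet2 among them.

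The wider lists of partners, 109 further genes of the same complexes and pathways, were expressed at similar levels, with a median of 37.7 TPM. Of these, 105 reached 1 TPM in both libraries and 90 reached 10 TPM. The histone chaperones Rbbp4 and Rbbp7, shared by PRC2 and NuRD, were at 402 and 428 TPM and at 331 and 330 TPM. Other abundant partners were the NuRD subunits Mbd3 (290 and 274 TPM) and Mta2 (175 and 167 TPM), the COMPASS subunit Dpy30 (162 and 157 TPM), the corepressor Ncor1 (165 and 154 TPM), and the SWI/SNF subunits Actl6a (156 and 163 TPM) and Dpf2 (159 and 144 TPM). For DNA methylation, the glycosylase Tdg was at 164 and 169 TPM and Uhrf1, which brings Dnmt1 to replicated DNA, at 130 and 132 TPM. In PRC1 and its BAP1 counterpart, Phc2 was at 87.2 and 67.1 TPM next to Bap1. The COMPASS core subunit Ash2l was at 110 and 123 TPM, and the demethylase Kdm5b at 82.7 and 81.5 TPM. Meaf6, a subunit of the KAT6 complexes, was at 65.1 and 71.5 TPM. The alternative cohesin subunits Stag1 and Stag2 were at 57.3 and 49.2 TPM and at 44.6 and 38.3 TPM. These partners were all well above the protein-coding median.

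The genes at the low end of each list ranged from near 0 to 21.7 TPM. The neuronal SWI/SNF subunit Actl6b was at 6.97 and 4.91 TPM, and the neuronal remodeller Chd5 at 0.27 and 0.38 TPM. The germ-cell cofactor Dnmt3l had 6 and 4 counts. The PRC2 accessory subunits Phf1 and Phf19 were at 12 and 10.4 TPM and at 1.38 and 1.88 TPM, and the PRC1 subunits Pcgf5 and Phc3 at 6.34 and 4.79 TPM and at 5.13 and 5.52 TPM. The methyltransferases Setd1b and Dot1l were at 7.99 and 8.43 TPM and at 21.7 and 19.5 TPM. The demethylase Phf2, a relative of Phf8, was at 10.4 and 8.93 TPM. Among acetylation genes Hdac9 was at 2.71 and 2.95 TPM and Kat2b at 1.87 and 2.25 TPM. The SWI/SNF subunit Dpf3 was at 4.14 and 3.44 TPM. The methyl-CpG binding protein Mbd2 was at 6.51 and 7.36 TPM.

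Grouped by human syndrome, the orthologues of most lists overlapped in level. On mean TPM the Kabuki list (11.1 to 18.9 TPM) and the overgrowth list (19.4 to 181 TPM) did not overlap. The medians were 15 TPM for the 2 Kabuki syndrome genes, 19.4 TPM for 6 genes of the ASXL and KAT6 syndromes, 25.7 TPM for the 2 Rubinstein-Taybi syndrome genes and 29.0 TPM for 7 overgrowth syndrome genes. They were 51.7 TPM for 5 Cornelia de Lange syndrome genes and 70.5 TPM for the 7 Coffin-Siris and Nicolaides-Baraitser syndrome genes. Within the Cornelia de Lange list alone the members ran from Hdac8 to Smc1a over a 9.99-fold range. Members with longer transcripts tended to have lower TPM, with a Spearman rho of -0.39 across the 59 genes and of -0.25 across 13490 expressed protein-coding genes. This correlation is across genes, which share the libraries, and is given as a description.

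Most regulators differed little between the libraries. The log2 difference, taken after adding 1 to each TPM, was within 0.2 for 55 of 59 members (93.2%), against 82.6% of 13490 protein-coding genes with a mean of 1 TPM or more. A difference past 0.5 was found for 2 of the 59, where 2.38% of those genes passed it, 1.1% higher and 1.28% lower in replicate 2. At a mean of 10 TPM or more, 1 of 53 members passed it, against 0.768% of 9111 genes. The shares within 0.2 are not matched for level. Intervals deposited for the TPM of the 2 libraries did not overlap for 11 members (18.6%), against a background of 11.8% that is not matched for level either. Of these, Adnp, Hdac4, Asxl1 and Kmt2d were lower in replicate 2, and Dnmt1, Hdac2, Smc3, Rnf2, Setd2, Smc1a and Chd4 were higher. Apart from Adnp, their log2 differences lay between -0.33 and 0.19. A TPM can lie outside its own deposited interval, so intervals that lie apart are a weak guide. In replicate 1 Hdac2 was at 313 TPM, with an interval of 298 to 309 TPM. Dnmt1 was at 87.3 TPM there, above its interval of 82.6 to 86.4 TPM and inside that of replicate 2 (87.1 to 90.3 TPM).

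**Figure D5:**
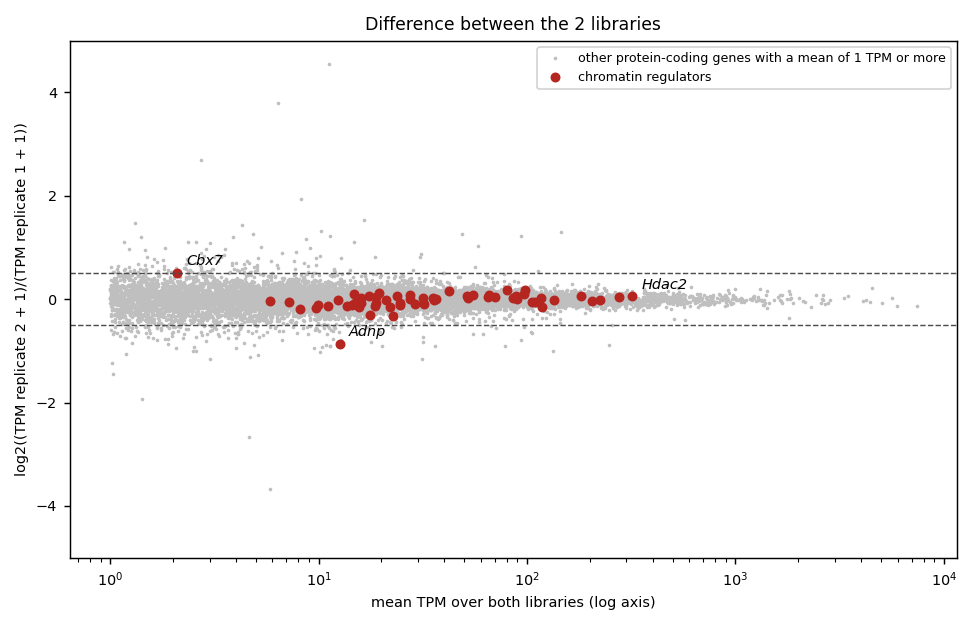
Log2 difference between the libraries (replicate 2 over replicate 1, after adding 1 to each TPM) against the mean TPM on a log axis, with the 59 regulators over the expressed protein-coding genes. Adnp lies at -0.86 and Cbx7 at 0.51, and 55 of the 59 lie within 0.2 of 0.

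Adnp (chr2:168180986-168207112, GRCm38, minus strand) had 1030 counts in replicate 1 and 813 in the deeper replicate 2. Its level was 1.91-fold lower in replicate 2, and only 28 of the 13490 protein-coding genes had a lower log2 difference. The 95% exact interval of the scaled count ratio, which covers counting error only, ran from -0.99 to -0.72 on the log2 scale. Of its transcripts, which were named after their values were seen, the coding Adnp-202 was at 11.3 and 4.44 TPM, Adnp-201 at 0.48 and 2.16 TPM and the retained intron Adnp-203 at 4.21 and 1.72 TPM. The 2 pools also differed in RNA of markers of other cells: 6 of 6 neuronal markers were lower in replicate 2 (log2 -0.45 to -0.13), and 5 of 5 lens and retina markers were higher (0.19 to 1.31). All 5 muscle markers were higher (0.07 to 0.26), and 4 of 5 erythroid markers were lower (-0.38 to 0.03 over the list). The epithelial, endothelial and macrophage lists went both ways. Of the facial mesenchyme markers, Alx1 was higher (0.54) and Dlx5 lower (-0.56). The part of these shifts in the Adnp difference was not tested.

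Cbx7 (chr15:79915807-79971119, GRCm38, minus strand) was higher in replicate 2 by 0.51, just past the threshold, on 100 and 182 counts. The interval of its scaled count ratio ran from -0.01 to 0.72 and so included 0. Its deposited mean transcript length was 3763 bases in replicate 1 and 2869 bases in replicate 2, and its TPM of 1.56 in replicate 1 lay below the deposited interval of 1.74 to 5.84 TPM. On posterior mean TPM and on scaled counts the difference did not pass 0.5. Scaling to equal spike-in totals put the median difference of all tested genes at -0.12 and left Adnp past the threshold.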

How the data were processed

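Total RNA from 2 pools of E12.5 facial prominence (n = 2, 1 group) was analysed from deposited tables per gene and per transcript. Per the deposited notes, reads were mapped to mm10 with GENCODE M4. The sources used here give no aligner or quantifier, and strand and ribosomal RNA depletion are not stated in them, so overlapping antisense genes cannot be told apart. Per the series title, the deposit has been superseded.

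Per the file headers, the deposited expected count is an estimated number of reads, in which reads that match several features are shared out. The deposited TPM values, with their credibility bounds and posterior mean, divide counts by effective length, with spike-ins inside the total. Per the file headers, the deposited FPKM values scale by length and depth, and the deposited transcript share is a percent of its gene. The level of the credibility bounds is not given in the sources used here.

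Gene names, transcript classes and coordinates (1-based) came from GENCODE M21 on GRCm38, which held 387 of the 389 transcripts of the members. Transcript shares were computed from transcript TPM. Complete coding transcripts are those with no missing start or end of the reading frame. Promoter windows came from RefSeq. Expected counts were rounded to whole numbers for edgeR 4.0.16 (R 4.3.3), with TMM factors and filterByExpr, to estimate a common dispersion of an intercept-only model, and the script was tested on simulated data. Count ratios have 95% exact Clopper-Pearson intervals, which hold for counting error alone, since reads may be PCR copies of the same molecule. Other steps used Python 3.11.15, numpy 2.4.6, pandas 2.3.3, scipy 1.17.1 and matplotlib 3.10.9. With 1 group of 2 pools, no p-value was computed, and spread between pools may be technical.

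The members, lists and pairs were chosen with earlier results of these data known. Named were all 59 members, the highest and lowest 2 genes of each wider list (1 of them is not reported here), genes in pairs, marker lists as wholes, members whose leading transcript differed between libraries or was not coding, and transcripts of Dnmt3a, Dnmt3b, Tet1, Tet3, Kdm1a, Smarca2, Ezh1 and Ehmt1. Transcripts of Dnmt1, Chd7, Kmt2c and Adnp, and the level of Cbx6, were added after their values were seen. Alternatives covered posterior means, FPKM, other scalings, thresholds and pseudocounts, and each library alone. Complete coding transcripts and shares of expected counts were chosen as alternatives after seeing the data.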

Additional observations from a re-analysis of the deposited data

How the results depend on the processing

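All 59 members reached 1 TPM in each library alone, and 52 to 55 reached 10 TPM. All 11 group medians stayed above the protein-coding median, 17 ratios were called and 51 to 52 members had mostly coding transcripts in each library alone. With FPKM in place of TPM, 58 members reached 1 and 42 reached 10. With a ratio threshold of 0.5, 26 ratios were called in place of 17. Of the 2 members past 0.5 between libraries, 1 remained, Adnp, with posterior mean TPM, with TMM-scaled or RLE-scaled counts, with equal spike-in totals and with a mean of 10 TPM or more, and 0 were past a threshold of 1. Of the protein-coding genes tested, 1.87% passed 0.5 with posterior means, 1.93% with TMM and 1.94% with RLE. At a mean of 10 TPM or more 0.768% did, and 0.252% passed a threshold of 1. Under equal spike-in totals, 0.593% of protein-coding genes were higher and 2.47% lower. The common dispersion was 0.00393 and became 0.00404 with no filter on low counts. Without division by length, 18 ratios were called, 13 of them among the 17, the 4 lost were Dnmt1 to Dnmt3a (-0.59), Arid1a to Arid1b (0.79), Tet1 to Tet2 (0.47) and Nsd1 to Nsd2, and the sign turned in 7 pairs. Among called ratios, Nsd1 to Nsd2 reversed to 0.40 there, and the Tet1 to Tet2 ratio reversed to -0.48 on complete coding transcripts. No library difference can be computed without a replicate. No paired analysis was possible because the series holds 1 group. Depth limits Cbx7 most, with 100 and 182 counts. The cause of these changes was not tested.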
